A study of Homo sapiens and Mus musculus with 7 samples.

Results

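A set of 8 genes of the platelet and megakaryocyte lineage was examined in HEL cells, an established human erythroleukaemia line that carries features of both red cell and platelet precursors. The genes were THBS1, PF4, PPBP, CLEC1B, CD9, NRGN, MYL9 and ITGA2B, and all 8 were found by symbol among the 14903 genes measured. The genes had been picked with their RNA levels in these libraries known, so their levels and ratios are given as descriptions. HEL cells with knockdown (KD) of KAP1, the corepressor encoded by TRIM28 that zinc finger proteins use to silence chromatin, were sequenced with hemin and without it, and so were HEL cells of the KAP1 WT genotype, whose columns are headed as controls and which are called control cells here. Hemin, the iron-bound haem compound that drives HEL cells towards the erythroid fate, was given at 50 µM for 5 days. Each of the 4 libraries was the only one of its group and was made from 250 ng of total RNA. How KAP1 was depleted, and whether the cells were a clone or a pool, was not given in the sources used here.

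With 1 library per group there was no replicate check and no test, and each interval below is an exact 95% interval that covers counting error only. Where both KD libraries are said to lie above or below both control libraries, the share of all genes doing so was not counted. The libraries held between 23523104 reads, in KD cells without hemin, and 41213984 reads, in KD cells with hemin, over the transcripts used. Levels are in scaled TPM, a length-corrected value brought to an equal depth in the 4 libraries, and a gene was compared where the higher library reached 5 scaled TPM. TRIM28 itself stood at 190 scaled TPM in KD cells with hemin and 317 in KD cells without it, against 400 in control cells with hemin and 421 in control cells without it. Its log2 ratio of KD to control was -1.07 with hemin and -0.41 without hemin, so the messenger that was targeted stayed well above the floor in both KD libraries. TRIM28 was deposited in whole numbers, for which no read count and no interval could be recovered.

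Megakaryocytes are the large marrow cells that shed platelets, and they load alpha granules with adhesive proteins and chemokines that platelets release when a vessel is injured. Platelets stick through glycoprotein receptors, and activation runs through kinases and calcium to the fibrinogen receptor integrin αIIbβ3 and to contraction by non-muscle myosin. Megakaryocytes and red cells descend from a shared progenitor, and GATA1, FLI1 and RUNX1 act on many platelet genes. Within the set, THBS1 (thrombospondin-1), PF4 (platelet factor 4, CXCL4) and PPBP (pro-platelet basic protein, CXCL7) are granule proteins. CLEC1B (CLEC-2, the receptor for podoplanin), CD9 (a tetraspanin) and ITGA2B (the αIIb integrin chain) sit on the surface. NRGN (neurogranin, which binds calmodulin) and MYL9 (a regulatory light chain of myosin) act inside the cell.

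RefSeq promoter windows (build GRCh38.p14) were at hand for 6 of the 8 genes, and 5 of them are printed 5′ to 3′ along the gene because these are the members whose levels moved most or stood highest. PF4 and MYL9 had no entry. Each run is the 250 bases before the annotated start. Capitals mark 3 kinds of word on either strand and 1 on the gene's own strand. The GATA words were AGATAA with its variant AGATAG, and likewise TGATAA with its variant TGATAG. The ETS words were AGGAAG and its variant CGGAAG, the SP1 word was GGGCGG, and the word searched on the gene's strand only was TATAAA. The AP-1 motif TGANTCA and the CArG box were also searched for.
THBS1 promoter, chr15:39580829-39581078, plus strand: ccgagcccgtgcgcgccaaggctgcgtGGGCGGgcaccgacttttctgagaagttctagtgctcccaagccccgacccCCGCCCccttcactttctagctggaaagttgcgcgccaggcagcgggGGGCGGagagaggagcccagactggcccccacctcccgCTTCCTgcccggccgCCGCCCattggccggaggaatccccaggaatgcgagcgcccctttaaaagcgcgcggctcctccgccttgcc
PPBP promoter, chr4:73988191-73988440, minus strand: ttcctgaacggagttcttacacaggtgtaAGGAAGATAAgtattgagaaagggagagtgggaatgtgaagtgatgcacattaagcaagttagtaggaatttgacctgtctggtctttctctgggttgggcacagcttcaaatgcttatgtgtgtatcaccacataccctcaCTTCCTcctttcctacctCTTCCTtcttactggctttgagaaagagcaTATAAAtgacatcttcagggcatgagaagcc
CLEC1B promoter, chr12:9999122-9999371, minus strand: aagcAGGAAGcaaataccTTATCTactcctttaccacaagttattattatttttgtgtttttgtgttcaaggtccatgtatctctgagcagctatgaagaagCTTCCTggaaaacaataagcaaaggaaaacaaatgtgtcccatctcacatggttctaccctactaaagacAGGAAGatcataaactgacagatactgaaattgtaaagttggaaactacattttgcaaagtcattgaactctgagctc
ITGA2B promoter, chr17:44389650-44389899, minus strand: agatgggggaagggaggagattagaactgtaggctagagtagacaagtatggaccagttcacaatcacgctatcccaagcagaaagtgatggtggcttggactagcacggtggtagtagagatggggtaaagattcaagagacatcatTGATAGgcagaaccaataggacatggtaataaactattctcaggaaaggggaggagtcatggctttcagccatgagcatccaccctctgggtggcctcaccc
NRGN promoter, chr11:124739692-124739941, plus strand: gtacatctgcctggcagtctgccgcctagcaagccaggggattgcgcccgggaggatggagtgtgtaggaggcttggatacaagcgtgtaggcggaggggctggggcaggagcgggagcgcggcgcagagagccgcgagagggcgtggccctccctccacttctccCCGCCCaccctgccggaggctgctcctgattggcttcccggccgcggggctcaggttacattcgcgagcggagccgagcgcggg

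The windows differed in make-up. THBS1 and NRGN held 69.6% and 70.0% G and C, above the median of 58% over 35116 promoters of the same length, whereas ITGA2B held 48.8%, PPBP 43.6% and CLEC1B 36.4%. PPBP carried a GATA word, AGATAA, that overlapped an ETS word, AGGAAG, and it had a TATAAA ending 26 bases before the start. CLEC1B carried a GATA word and 3 ETS words, and ITGA2B a single GATA word, TGATAG, 102 to 97 bases before the start. THBS1 held 4 SP1 words and 1 ETS word, and NRGN 1 SP1 word. None of the 6 genes' windows held the AP-1 motif or the CArG box. Such words are common: a GATA word occurred in 22.3% of all promoters, an ETS word in 40.8%, an SP1 word in 42.6%, TATAAA in 6.80%, the AP-1 motif in 6.57% and the CArG box in 1.16%.

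The 8 genes spanned a wide range of levels. ITGA2B and NRGN were the highest and the next highest in all 4 libraries, and the lowest was CLEC1B in 2 libraries and PPBP in the other two. The summed level of the 8 genes was 1464 scaled TPM in KD cells with hemin, 1818 in KD cells without hemin, 976 in control cells with hemin and 2175 in control cells without hemin, and ITGA2B made up the larger part of each sum. These are whole-culture RNA levels, in which fewer cells of a type and less RNA per cell cannot be told apart.

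**Figure D1:**
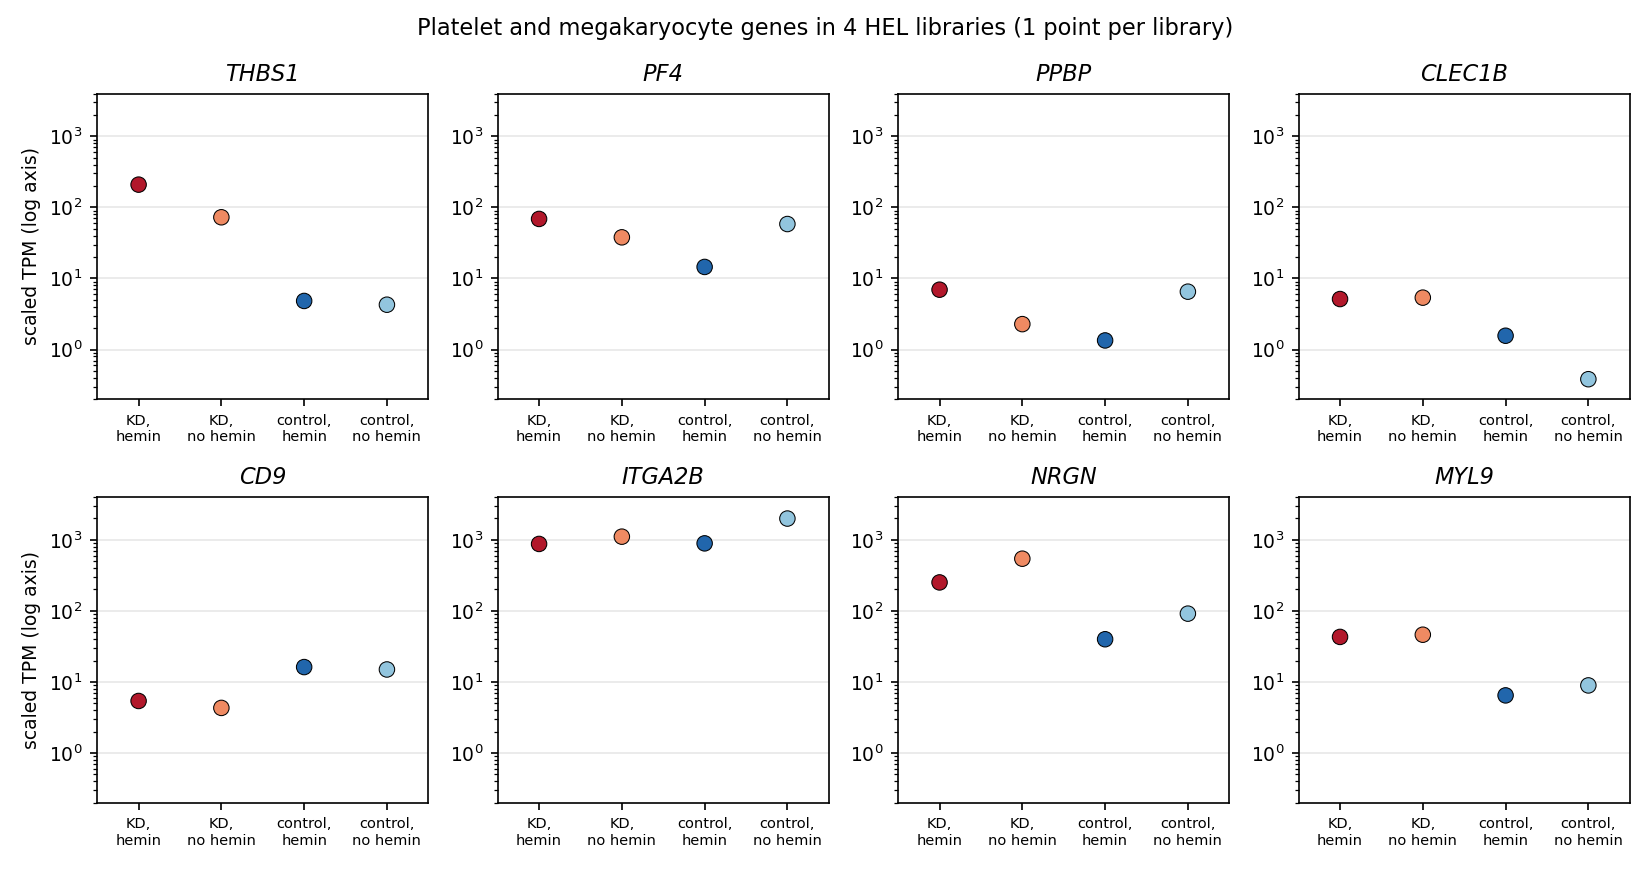
Levels of the 8 platelet and megakaryocyte genes in each of the 4 HEL libraries, in scaled TPM on a log axis, 1 point per library. THBS1 sits at 209 and 72.6 in the KD libraries and below 5 in both control libraries, whereas CD9 is lower in both KD libraries and ITGA2B is near or above 874 everywhere.

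THBS1, a matrix protein released from alpha granules that binds CD36, CD47 and integrins, showed the largest KD ratio of the set. It stood at 209 scaled TPM in KD cells with hemin and 72.6 in KD cells without hemin, against 4.83 in control cells with hemin and 4.28 in control cells without it. Both KD libraries lay far above both control libraries. THBS1 was 43.3-fold higher in KD than in control cells with hemin (interval 39.6 to 47.3, from 25554 and 512 reads) and 17.0-fold higher without hemin (15.3 to 18.9, from 4963 and 397 reads). Hemin went with a 2.88-fold higher level in KD cells (2.79 to 2.97), whereas in control cells the ratio of hemin to no hemin was 1.13 (0.989 to 1.29). On the log2(scaled TPM + 0.5) scale the KD ratio ranked first of 10893 genes with hemin and the third of 10868 without it. Among its receptors, CD36 stood at 105, 42.5, 101 and 51.4 scaled TPM in KD cells with and without hemin and control cells with and without hemin, and CD47 at 144, 71.3, 104 and 88.1. Neither differed by 2-fold between KD and control cells in either state. LRP1, the endocytic receptor that clears thrombospondin, was lower in KD cells, at 0.271 scaled TPM with hemin and 0.406 without, against 5.47 and 5.78 in control cells, and SDC4, a heparan sulphate proteoglycan, stood at 3.33 and 3.29 in KD cells against 8.78 and 12.8 in control cells.

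PF4, a chemokine that binds heparin and is found almost only in platelets and their precursors, did not order by genotype. Its level was 68.8 scaled TPM in KD cells with hemin and 37.9 in KD cells without hemin, against 14.5 in control cells with hemin and 58.3 in control cells without it. The single low library was the control with hemin. PF4 was thus 4.73-fold higher in KD than in control cells with hemin (interval 3.91 to 5.77, from 688 and 126 reads) and 1.54-fold lower without hemin (1.30 to 1.82, from 212 and 443 reads). In control cells it was 4.01-fold lower with hemin than without (3.29 to 4.93), and in KD cells it was 1.81-fold higher with hemin than without (1.55 to 2.13).

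PPBP, the precursor of the neutrophil-attracting peptide NAP-2, gave the same order of libraries as PF4. It stood at 6.96 scaled TPM in KD cells with hemin and 2.28 in KD cells without hemin, against 1.34 in control cells with hemin and 6.52 in control cells without it. The level in KD cells with hemin and that in control cells without it were close, and both others were low. PPBP was 5.17-fold higher in KD than in control cells with hemin (3.55 to 7.78, from 191 and 32 reads) and 2.86-fold lower without hemin (1.96 to 4.28, from 35 and 136 reads). Hemin went with a 3.05-fold higher level in KD cells (2.12 to 4.51) and a 4.85-fold lower one in control cells (3.28 to 7.37). The difference between the log2 KD ratio with hemin and that without was 3.89 for PPBP (3.08 to 4.70) and 2.86 for PF4 (2.49 to 3.24), both computed on reads. PF4 stayed well above PPBP throughout, at 9.89 times its level in KD cells with hemin, 16.6 times in KD cells without hemin, 10.8 times in control cells with hemin and 8.94 times in control cells without it.

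PF4 and PPBP lie side by side in a cluster of CXC chemokine genes on chromosome 4, in the gene order of RefSeq. Of the 10 nearest protein-coding genes of PF4, 6 were in the table and 5 reached the floor. With hemin, 4 of these 5 were at least 2-fold higher in KD than in control cells, PPBP itself among them. Over all genes, 6.00% were higher with hemin, and 6.69% were higher and 6.41% lower without it. Without hemin none of the 5 was higher and 1, PPBP, was lower. PPBP was a chosen member, and the neighbours were named after their values were seen, so these counts are descriptions only. PF4V1, a near copy of PF4 whose reads may be shared with it, stood at 7.84 and 6.20 scaled TPM in KD cells with and without hemin and at 1.93 and 8.88 in control cells with and without hemin. CXCL3 stood at 29.7 and 13.5 in KD cells against 10.1 and 14.6 in control cells, and CXCL2 at 16.9 and 10.97 against 8.01 and 9.30, in the same order of hemin and no hemin. CXCL3 and CXCL2, which like NAP-2 act on the neutrophil receptor CXCR2, were 2.95-fold and 2.10-fold higher in KD than in control cells with hemin. Unlike PF4 and PPBP, they were less than 2-fold lower with hemin than without in control cells. IL8 stayed below the floor in all 4 libraries, and MTHFD2L, at the edge of the cluster, lay between 5.55 and 7.26 scaled TPM.

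**Figure D2:**
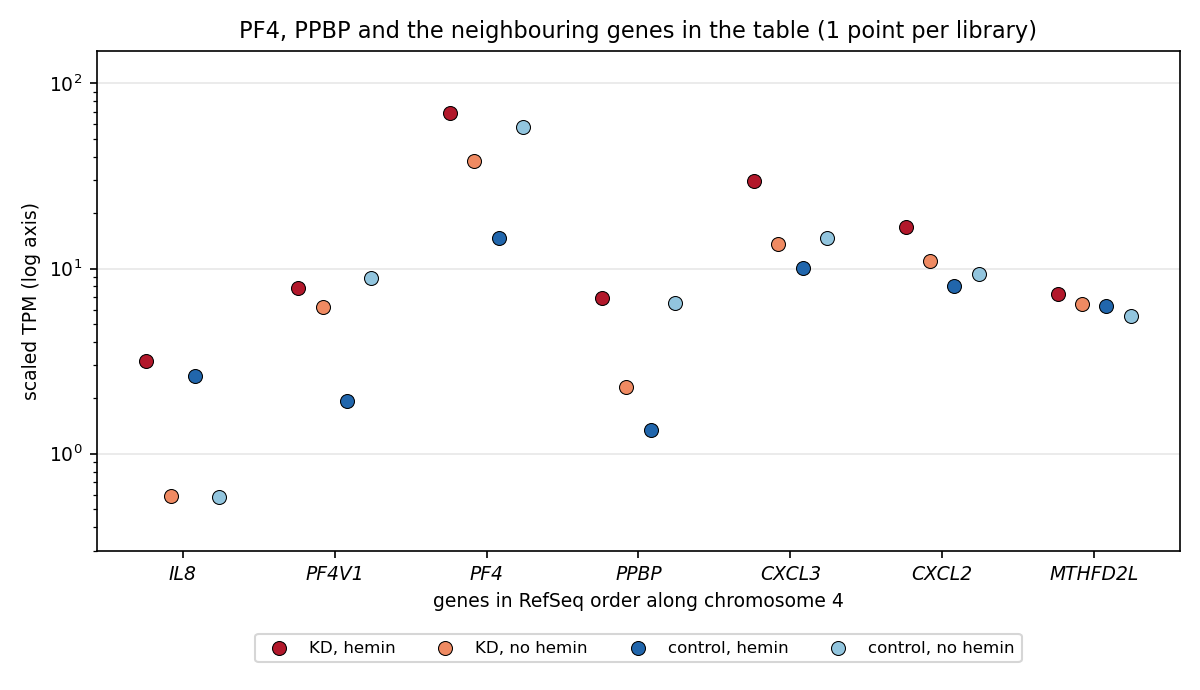
Levels of PF4, PPBP and the neighbouring genes that were in the table, in RefSeq order along chromosome 4, in scaled TPM on a log axis with 1 point per library. In PF4, PF4V1 and PPBP the control library with hemin is the lowest of the 4, whereas MTHFD2L stays between 5.55 and 7.26.

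CLEC1B, which signals through the kinase SYK when podoplanin or rhodocytin binds it, was low in every library and rested on few reads. It stood at 5.14 scaled TPM in KD cells with hemin and 5.38 in KD cells without hemin, against 1.57 in control cells with hemin and 0.383 in control cells without it, from 53, 31, 14 and 3 reads. Both KD libraries were above both control libraries. The log2 ratio of KD to control on reads was 3.81 without hemin, with a wide interval of 2.13 to 6.16, and 1.71 with hemin (0.84 to 2.68). Reads of each transcript were recovered only up to a common divisor. The intervals here, and those of NRGN and other members, may therefore be too wide. A further transcript of the gene gave log2 ratios of 2.28 without hemin and 1.56 with hemin, beside 2.73 and 1.45 for the first. SYK stood at 68.9 and 109 scaled TPM in KD cells with and without hemin and at 57.5 and 90.0 in control cells, and podoplanin (PDPN) was not in the table.

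CD9, a tetraspanin of the platelet surface that binds αIIbβ3 and other integrins, was the only member at least 2-fold lower in KD than in control cells in both states. It stood at 5.41 scaled TPM in KD cells with hemin and 4.32 in KD cells without hemin, against 16.2 in control cells with hemin and 15.0 in control cells without it. Both KD libraries lay below both control libraries, and the level hardly moved with hemin. CD9 was lower in KD than in control cells by a log2 ratio on reads of -1.58 with hemin (-1.87 to -1.31) and -1.80 without hemin (-2.20 to -1.41). The tetraspanins CD63, CD81 and CD151 all stayed within 2-fold between KD and control cells. CD9 therefore made up 0.651% of the summed level of these 4 tetraspanins in KD cells with hemin and 0.466% in KD cells without hemin, against 1.92% and 1.72% in control cells with and without hemin.

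ITGA2B, whose product pairs with the β3 chain as the fibrinogen receptor, was among the most abundant messengers of these cells. It stood at 874 scaled TPM in KD cells with hemin and 1107 in KD cells without hemin, against 891 in control cells with hemin and 1989.8 in control cells without it. The untreated control library stood apart and the other three lay close together. ITGA2B was 1.80-fold lower in KD than in control cells without hemin (1.78 to 1.82), whereas with hemin the ratio was 0.981 (0.970 to 0.993). That ratio turned to slightly above 1 with plain read totals, at a log2 value of 0.07. In control cells ITGA2B was 2.23-fold lower with hemin than without (2.21 to 2.26). In KD cells it was 1.27-fold lower with hemin (1.25 to 1.28).

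Its partner ITGB3 did not follow. ITGB3 stood at 361 scaled TPM in KD cells with hemin and 343 in KD cells without hemin, against 154 in control cells with hemin and 205 in control cells without it. It was 2.34-fold higher in KD than in control cells with hemin and 1.68-fold higher without hemin. Per length, ITGA2B exceeded ITGB3 by a factor of 2.42 in KD cells with hemin and 3.23 in KD cells without hemin, against 5.78 and 9.73 in control cells with and without hemin. The chains of the receptor were thus closer in RNA level in both KD libraries than in both control libraries.

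NRGN, which binds calmodulin when calcium is low and is known from neurons as well as platelets, was lower with hemin and higher with KD. It stood at 252 scaled TPM in KD cells with hemin and 542 in KD cells without hemin, against 39.9 in control cells with hemin and 91.5 in control cells without it. Both KD libraries lay above both control libraries, and within each genotype the hemin library was the lower one. NRGN was 6.30-fold higher in KD than in control cells with hemin (5.71 to 6.97) and 5.93-fold higher without hemin (5.51 to 6.38). Hemin went with a 2.16-fold lower level in KD cells and a 2.29-fold lower one in control cells, so both differences held at nearly the same size on either side. A further transcript gave log2 KD ratios of 2.64 with hemin and 2.53 without hemin, beside 2.64 and 2.56 for the first.

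Genes for calmodulin, which NRGN binds, moved less. CALM2 stood at 524 scaled TPM in KD cells with hemin and 487 in KD cells without hemin, against 356 and 484 in control cells with and without hemin. CALM3 stood at 419 and 639 in KD cells against 265 and 386 in control cells. Both stayed within 2-fold between KD and control cells in either state.

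MYL9, whose phosphorylation by MYLK lets non-muscle myosin contract, was higher in both KD libraries and moved little with hemin. It stood at 43.0 scaled TPM in KD cells with hemin and 46.2 in KD cells without hemin, against 6.48 in control cells with hemin and 8.95 in control cells without it. MYL9 was 6.64-fold higher in KD than in control cells with hemin (5.58 to 7.97) and 5.17-fold higher without hemin (4.36 to 6.14), and its further transcript gave log2 ratios of 2.67 and 2.18. The sister light chains MYL12A and MYL12B, the heavy chain gene MYH9 and the kinase gene MYLK stayed within 2-fold between KD and control cells. MYL9 made up 7.98% of the summed level of the 3 light chain genes in KD cells with hemin and 9.14% in KD cells without hemin, against 1.63% and 1.67% in control cells with and without hemin.

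Set side by side, 6 of the 8 members were at least 2-fold higher in KD than in control cells with hemin, where 6.00% of 10893 genes were, and 1 was at least 2-fold lower, where 4.10% were. The 6 were THBS1, PF4, PPBP, CLEC1B, NRGN and MYL9, and the 1 was CD9. Without hemin 4 were at least 2-fold higher (THBS1, CLEC1B, NRGN and MYL9), where 6.69% of 10868 genes were, and 2 were at least 2-fold lower (PPBP and CD9), where 6.41% were. The median log2 KD ratio over the members was 2.11 with hemin and 0.85 without, beside 0.01 and 0.03 over all genes compared. The members were chosen on these ratios, so the counts describe the choice.

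**Figure D3:**
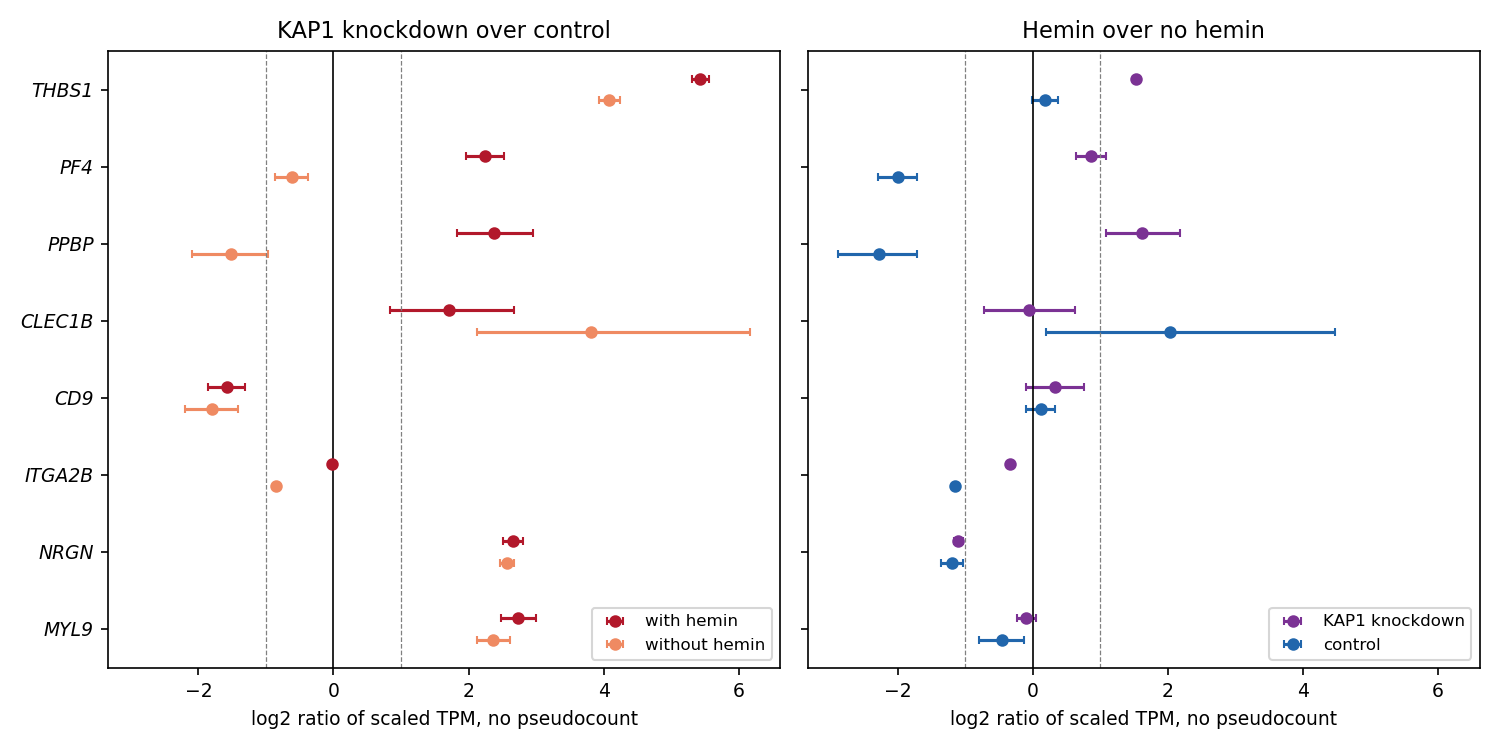
Log2 ratios of scaled TPM without a pseudocount for the 8 genes, for KD against control in each hemin state (left) and hemin against no hemin in each genotype (right), with bars for the 95% counting interval and dashed lines at 2-fold. THBS1 has the largest KD ratios, at 5.44 with hemin and 4.09 without, and PF4 and PPBP have opposite signs in the 2 hemin states.

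Hemin drew fewer members past 2-fold, and those of the 2 genotypes overlapped only in part. NRGN was lower with hemin in both genotypes, and PPBP passed 2-fold in opposite directions. In KD cells 2 members were at least 2-fold higher with hemin than without (THBS1 and PPBP), where 2.27% of 10816 genes were, and 1 was at least 2-fold lower (NRGN), where 1.70% were. In control cells none was at least 2-fold higher, where 2.59% of 10789 genes were, and 4 of the 6 members that reached the floor were at least 2-fold lower (PF4, PPBP, ITGA2B and NRGN), where 2.59% were. THBS1 and CLEC1B lay below the floor in both control libraries. The knockdown log2 ratio was at least 1 more positive with hemin than without for 3 members (THBS1, PF4 and PPBP), where 3.35% of 11149 genes were, and at least 1 more negative for CLEC1B alone, where 2.85% were. The comparisons share libraries with each other in pairs, so their counts are not separate pieces of evidence.

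**Figure D4:**
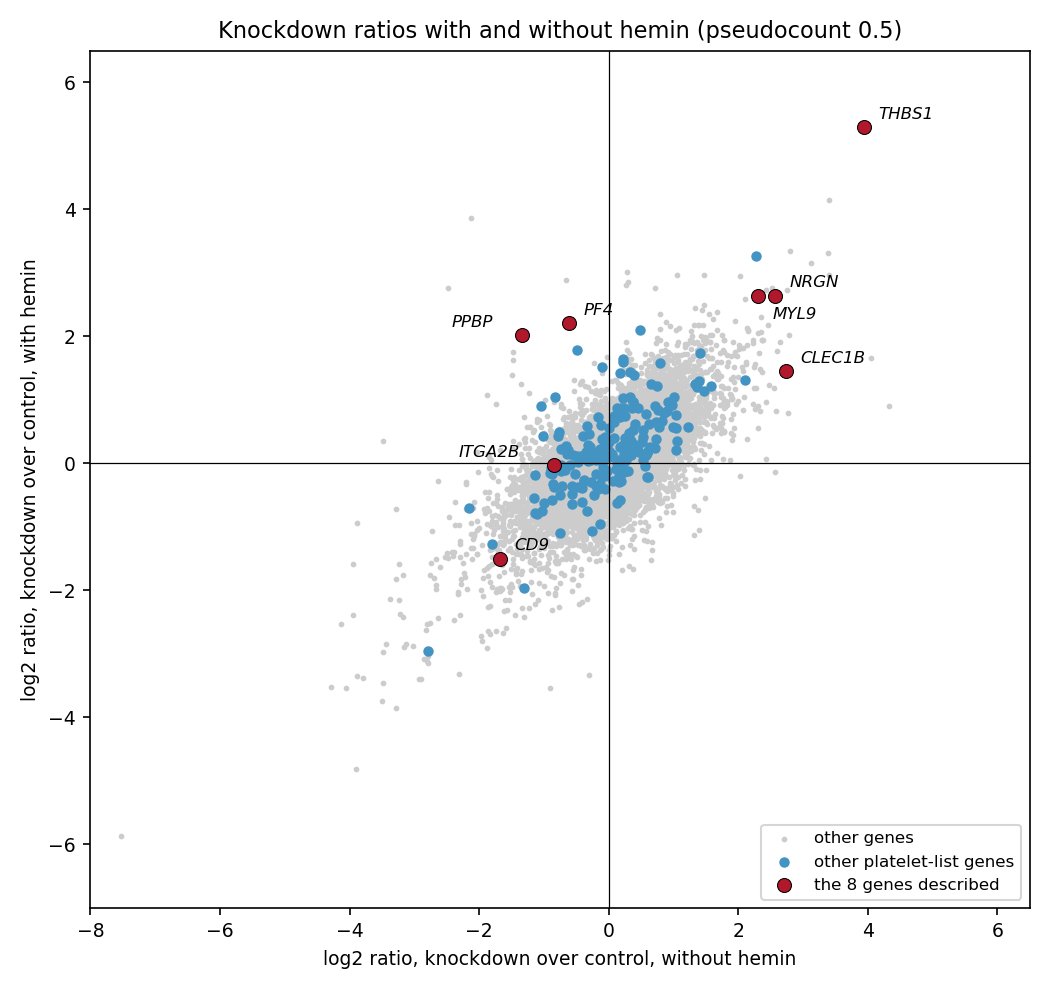
Log2 KD ratio with hemin against log2 KD ratio without hemin, on the log2(scaled TPM + 0.5) scale, for the 8 members over all genes that reached the floor. PF4 and PPBP lie on opposite sides of 0 on the 2 axes, and NRGN, MYL9 and CD9 have nearly the same value on both.

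Across the 4 libraries the members fell into a few shapes, measured as the root mean square distance between log2 values centred on each gene's mean. PF4 and PPBP were the closest pair at 0.31, followed by NRGN and MYL9 at 0.45 and by CLEC1B and MYL9 at 0.62, whereas THBS1 and CD9 were farthest apart at 3.13. Among 11149 genes, the nearest to PF4 were PF4V1 at 0.20, PPBP, and BATF3 at 0.32. The nearest to PPBP were PF4, CCR4 at 0.35 and SNORA73B at 0.37. ITGA2B was nearest to PTGDR2 at 0.04, ST6GALNAC5 at 0.06 and RP11-632K20.1 at 0.07. CD9 was nearest to RAPGEF2 at 0.02, GALM at 0.08 and CPPED1 at 0.09, and CLEC1B to HIST1H3H at 0.06, CBR3 at 0.12 and MORN2 at 0.15. The nearest to MYL9 were OR2T33 at 0.13 and GRIP1 and DLGAP5 at 0.14, and the nearest to NRGN were NAT8 at 0.24 and PGBD5 and BEX5 at 0.27. The nearest genes were farthest off for THBS1, with ACTL8 at 0.78, KBTBD12 at 0.81 and NOV at 0.85.

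A further 8 lists of other platelet and megakaryocyte genes, 235 genes without the members, of which 211 were in the table, set these values in context. With hemin 23 of the 189 listed genes that reached the floor had a KD level at least 2-fold above control (12.2%, beside 6.00% of all genes) and 5 were at least 2-fold lower (2.65%, beside 4.10%). Without hemin 14 of 187 were higher (7.49%, beside 6.69%) and 12 lower (6.42%, beside 6.41%), which is close to the share over all genes. In control cells 4 of 188 were at least 2-fold higher with hemin than without (2.13%, beside 2.59% of all genes) and 16 lower (8.51%, beside 2.59%). In KD cells 5 of 186 were higher (2.69%, beside 2.27%) and 3 lower (1.61%, beside 1.70%). The lists were drawn up with earlier results of these data known, so these counts describe them and carry no test.

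Among surface receptors other than the members, 9 of the 40 that reached the floor stood at least 2-fold above control in KD cells with hemin (22.5%, beside 6.00% of all genes) and 1 at least 2-fold below (2.50%, beside 4.10%). Without hemin 3 of 40 were higher and 3 lower, 7.50% each, beside 6.69% and 6.41% of all genes. TREML1, a receptor stored in alpha granules, stood at 86.7 and 91.7 scaled TPM in KD cells with and without hemin, against 8.52 and 18.6 in control cells with and without hemin, and was the one with the largest ratio. GP1BA, the von Willebrand factor receptor chain, stood at 145 and 141 in KD cells against 47.6 and 120 in control cells, and its partner GP1BB at 9.69 and 11.6 against 2.92 and 6.48. GP6, the collagen receptor, stood at 47.6 and 63.0 in KD cells against 14.9 and 54.2 in control cells. For GP1BA and GP6, as for PF4, the low library was the control with hemin. GP9, the third chain of that complex, did not share this, at 155 and 260 in KD cells against 178 and 232 in control cells. FCGR2A and SELPLG went the other way without hemin, with log2 KD ratios of -2.16 and -1.30.

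Other alpha granule genes differed between the 2 hemin states. Of 13 that reached the floor, 3 stood at least 2-fold above control in KD cells with hemin (23.1%, beside 6.00% of all genes). None stood at least 2-fold below, where 4.10% of all genes did. Without hemin 2 were higher (15.4%, beside 6.69%) and 4 lower (30.8%, beside 6.41%). The median log2 ratio was 0.43 with hemin and -0.63 without. PROS1 and TIMP1 were among the 4 lower genes. CLU (clusterin) stood at 652 and 502 scaled TPM in KD cells with and without hemin against 262 and 117 in control cells. MMRN1 (multimerin) stood at 67.4 and 40.2 in KD cells against 32.4 and 71.9 in control cells, and its lowest library, as for PF4, was the control with hemin. SRGN (serglycin), the proteoglycan that holds PF4 in the granule, ran differently, at 188 and 67.8 in KD cells against 322 and 150 in control cells. TIMP3 stood at 203 and 241 in KD cells against 151 and 489 in control cells.

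The list of actomyosin and microtubule genes, to which MYL9 belongs, had calls in 1 direction. Of 36 that reached the floor with hemin, 7 stood at least 2-fold above control in KD cells (19.4%, beside 6.00% of all genes) and none at least 2-fold below, where 4.10% of all genes were. Of 35 without hemin, the counts were again 7 (20.0%, beside 6.69% of all genes) and none, where 6.41% of all genes were. The median log2 ratio was 0.35 with hemin and 0.33 without. ACTN1 (alpha-actinin) stood at 265 and 373 scaled TPM in KD cells against 78.8 and 140 in control cells. ILK (integrin-linked kinase) stood at 216 and 213 against 87.1 and 80.3, and PFN1 (profilin) had log2 ratios of 1.25 with hemin and 1.33 without. TUBA4A, an alpha-tubulin, stood at 373 and 538 scaled TPM in KD cells against 162 and 210 in control cells.

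Few genes for platelet signalling, granule formation and transcription passed 2-fold. Of 40 platelet signalling genes at the floor, none was past 2-fold between KD and control cells with hemin, and 1 was higher (FERMT3, kindlin-3) and 1 lower (RGS18) without hemin. Of 28 genes of granule formation none was past 2-fold with hemin, and 1 of 27 was lower without it. Of 25 transcription factors, 2 were higher and 2 lower with hemin, and 1 was higher and 1 lower without it. ZFPM1 (FOG1, the GATA1 cofactor) stood at 44.9 and 80.8 scaled TPM in KD cells against 19.1 and 26.8 in control cells, and ETS1 at 458 and 565 against 173 and 430. GATA1, FLI1, RUNX1 and NFE2 were all within 2-fold in the 4 comparisons. Of the 13 partners of thrombospondin and CLEC-2 at the floor, 1 was higher and 2 lower in KD than in control cells with hemin. Of 4 other CXC chemokine genes and receptors, 3 were at least 2-fold higher in KD than in control cells with hemin. None was lower with hemin, and none passed 2-fold without it. The 3 were PF4V1, CXCL3 and CXCL2, the same neighbours of PF4 that were counted above. Over all genes compared, 6.00% were higher and 4.10% lower with hemin, and 6.69% and 6.41% without it.

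**Figure D5:**
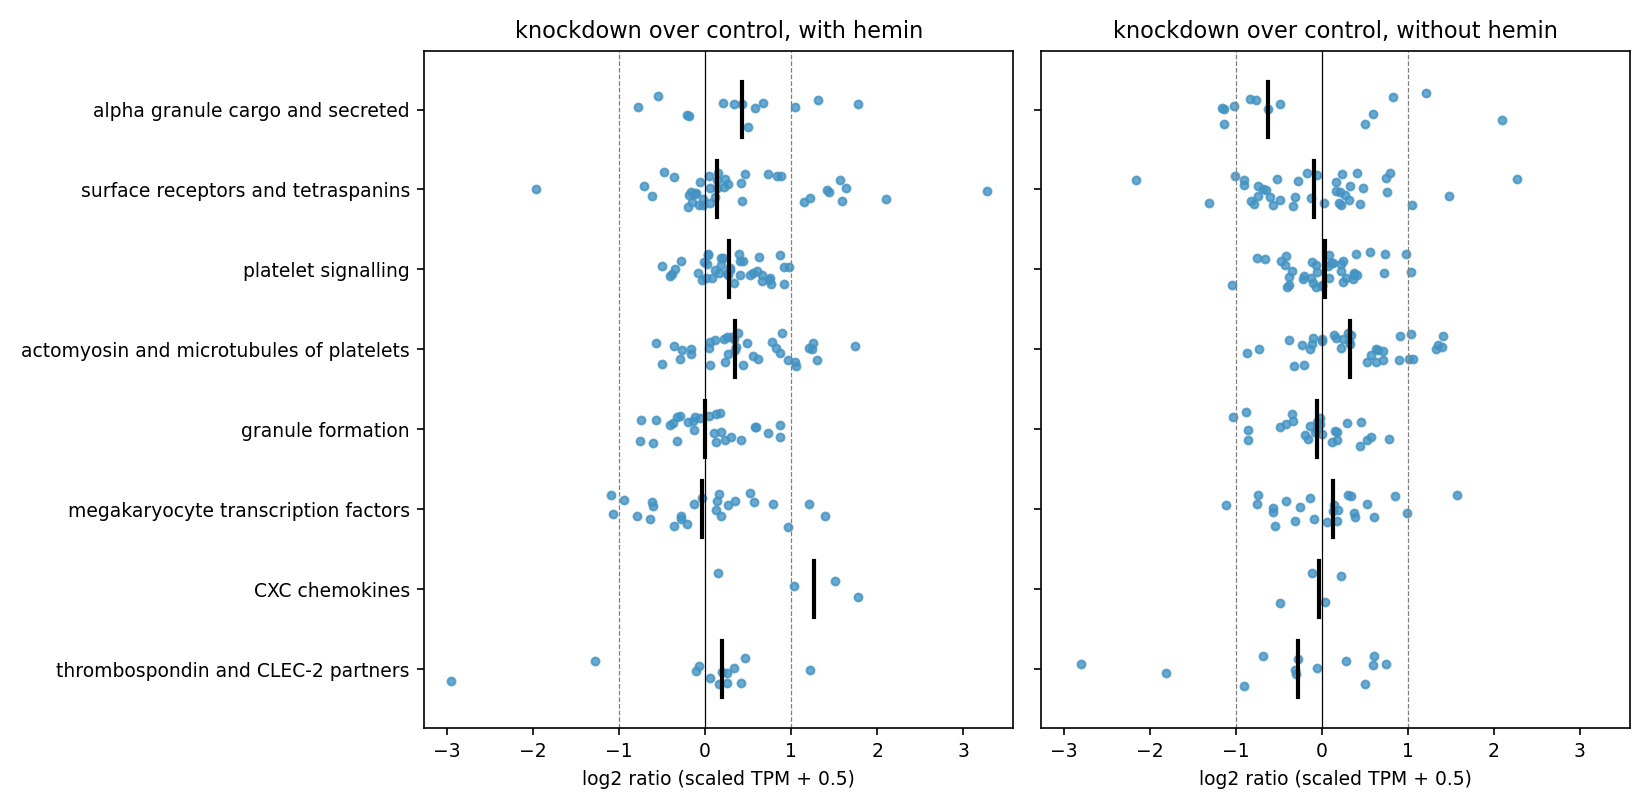
Log2 KD ratios of the genes in the 8 lists without the members, on the log2(scaled TPM + 0.5) scale, with hemin and without, 1 point per gene at the floor, a black bar for each list's median and dashed lines at 2-fold. The actomyosin genes have no point at or below -1 in either state, and more receptor genes lie at or above 1 with hemin than without it.

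Markers of other lineages were summed beside these results, and their part in the results was not tested. The sum over 14 erythroid markers, all in the table, was 77037 scaled TPM in KD cells with hemin and 19223 in KD cells without hemin, against 61525 and 15593 in control cells with and without hemin, so hemin went with higher erythroid RNA in both genotypes. The sum over mast cell, eosinophil and myeloid markers, 12 of 14 in the table, was lower in KD cells, at 1027 and 707 scaled TPM against 2554 and 2818. The endothelial sum, 8 of 9 in the table and including PECAM1, which platelets share, was 263 and 332 in KD cells against 265 and 450 in control cells. Fibroblast and smooth muscle markers summed to between 15.8 and 24.3 scaled TPM, and 7 of the 12, COL1A1, COL1A2, COL3A1, PDGFRA, DCN, LUM and CNN1, were not in the table. Lymphoid markers, 3 of 7 in the table, summed to 132 and 136 in KD cells against 68.6 and 102 in control cells.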

How the data were processed

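RNA of 4 HEL libraries, 1 per group, was deposited by the authors as RPKM values for transcripts with RefSeq names, which is how the columns are headed. Per the submitters' processing notes, Bowtie and the hg19 build were used; for the counter, its strand setting and all versions, the sources used here say nothing. These values proved not to be scaled to depth. In 24403 of 24403 transcripts that were not whole numbers, they were whole reads divided by a length and a library factor (within 0.0002 reads plus 4e-09 of the value), so reads were recovered, up to a common divisor per transcript. The remaining 5 transcripts of whole numbers gave no reads. No value was 0, so genes without a read in some library may be missing.

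Here the transcript with the highest mean value stood for each gene. Depth was removed with read totals and TMM factors (log ratios trimmed by 0.3, abundance by 0.05), and values were scaled to a mean sum of 1000000, giving scaled TPM. Ratios on the log2 scale used a pseudocount of 0.5, and folds and exact conditional 95% intervals used reads alone. A gene counted where the higher library reached 5 scaled TPM. All steps used Python 3.11.15 and scipy 1.17.1. The library factors, read recovery, TMM scaling and the interval of a ratio between 2 libraries were tested on simulated data, and the other steps were not. The text names all members, their direct partners (some are not reported here), up to 3 genes past 2-fold each way per list and comparison, and the 3 nearest genes per member by pattern; gene-order neighbours were named after their values were seen. The members and lists were chosen with earlier results of these data known. In all, 10 alternatives were run. Mouse KAP1 peaks were not used here.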

Additional observations from a re-analysis of the deposited data

Results flagged for a closer look

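PF4 and PPBP stood out because their ratios ran in opposite directions in the 2 states and in the 2 genotypes, each with a counting interval clear of no change. For PF4 the log2 ratio of KD to control was 2.20 with hemin and -0.62 without hemin, and the log2 ratio of hemin to no hemin was 0.85 in KD cells and -1.97 in control cells. For PPBP the log2 ratio of KD to control was 2.02 with hemin and -1.34 without hemin, and the log2 ratio of hemin to no hemin was 1.42 in KD cells and -1.93 in control cells. With 1 library per group the difference was not tested. All 4 ratios of a gene come from the same 4 libraries, so they are not separate observations.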

How the results depend on the processing

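Of the 100 counts of members recomputed under the 10 alternatives, 83 stayed within 1.5 times the reported count. With the deposited RPKM as they stand, unscaled for depth, members at least 2-fold lower in KD without hemin were 4, those higher with hemin in KD cells 4 and lower 0, and those with a KD ratio more positive with hemin 5 and more negative 0. That setting moved the median log2 ratio of all genes to -0.55, 0.22, 0.95 and 0.15 in the KD comparisons without and with hemin and the hemin comparisons in KD and control cells. Plain totals moved it to 0.14 and 0.11 in the KD comparisons without and with hemin. With a floor of 20, members lower in KD were 0 without and 0 with hemin, those higher with hemin in KD cells 1, and those more negative with hemin 0, since fewer genes were compared. With no floor, CLEC1B made 1 member higher with hemin in control cells. With a pseudocount of 2, members lower in KD without hemin were 1 and those more negative with hemin 0. With the transcript of most reads, the further CLEC1B transcript stood for the gene. Its difference was then -0.73, and those more negative with hemin were 0. With summed transcripts, members lower in KD without hemin were 1 and those higher with hemin in KD cells 1; PPBP kept log2 ratios of -1.29 and 1.35 but lay under the floor. With a length trend removed, a setting chosen after seeing the data, members lower with hemin in KD cells were 0 and those more negative 0, although the values moved little: NRGN stood at -0.99, against -1.11 as reported, and CLEC1B's difference at -1.26, against -1.29, with its level under the floor. Of 400 single ratios of members, 357 moved by no more than their counting interval reaches to that side, 43 moved by more and none that was past 2-fold changed sign. No paired analysis was possible because each group had 1 library and 1 replicate number. Low read numbers limit CLEC1B most, at 3 reads, recovered up to a common divisor, in control cells without hemin.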
